A study of Mus musculus with 6 samples.

Results

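The circadian clock genes described here are 10 genes of the mouse molecular clock: Arntl (also called Bmal1), Clock, Per1, Per2, Per3, Cry1, Cry2, Nr1d1, Nr1d2 and Dbp. Their members were taken as every non-control array probe whose gene name is 1 of the 10, which gave 18 of the 41174 probes on the array. Of these probes 17 were bright enough to test, which here means that the 2 arrays of some group both flagged the probe as well above background. Where a gene had several probes, the brightest stood for it, and the others are given beside it.

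CLOCK and ARNTL form a dimer that binds E-boxes and drives transcription of the Period and Cryptochrome genes, of Nr1d1 and Nr1d2 and of Dbp. The PER and CRY proteins then return to the nucleus and inhibit that dimer, and the REV-ERB receptors encoded by Nr1d1 and Nr1d2 repress Arntl through ROR elements. DBP activates genes that carry D-boxes, among them Period genes. Fibroblasts in culture run this loop cell by cell, and signals such as serum can reset it.

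RNA came from primary mouse embryonic fibroblasts (MEFs), grown in DMEM medium with 10% fetal calf serum. The groups were untreated cells (0 h), cells after 2 h in 1 mM H2O2 and cells after 4 h in 1 mM H2O2, with 2 Agilent arrays of 1 colour (Cy3) in each. H2O2 is an oxidant that crosses membranes and is used to impose oxidative stress. The labels give 2 independent experiments per time point without saying what was independent, so the p-values measure the spread between these arrays, which may be technical. No genotype, strain, sex or embryonic age is given, nor the clock time of harvest, and the cells were not described as synchronised. No untreated cells were collected at 2 h or 4 h, so H2O2, time in culture, handling and time of day cannot be told apart.

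Levels are log2 of the processed signal minus the 75th percentile of that array, so 0 is the level of that percentile, and a level can be compared between arrays but not between probes. A gene rose or fell where limma's moderated test, fitted across all 25886 tested probes and adjusted with the Benjamini-Hochberg method, gave an adjusted p under 0.05. The 75th percentile of the signal was 674 to 883 over the 6 arrays, between 57.3% and 68.0% of spots per array were well above background, and the arrays of a pair correlated at 0.992 to 0.993. Each of the 12 fibroblast markers was well above background in each group, with summed signals of 1253 to 1335 times the array's 75th percentile untreated, 1574 to 1604 at 2 h and 1488 to 1605 at 4 h. Of 8 endothelial markers, 4 were so on both untreated arrays, 7 at 2 h and 5 at 4 h, and their summed signal was 0.530 to 0.586 of the array's 75th percentile untreated, 1.06 to 1.20 at 2 h and 1.04 at 4 h. The sum for 6 blood and macrophage markers was 1.68 to 1.71 untreated, 2.08 to 2.19 at 2 h and 2.07 to 2.11 at 4 h, and for 4 muscle markers 1.38 to 1.47, 2.01 to 2.10 and 1.71 to 1.84. For 5 epithelial markers it was 0.223 to 0.270 untreated, 0.346 to 0.566 at 2 h and 0.312 to 0.315 at 4 h, for 3 germ cell markers 0.230, 0.220 to 0.254 and 0.196 to 0.223, and the sums of 4 neural markers overlapped between the groups. These sums add linear signals, so the brightest markers weigh most and a single marker can move against its sum. The fibroblast markers Pdgfra and Pdgfrb were lower on all 4 treated arrays than on both untreated ones, and no other fibroblast marker was. Of the other markers, those well above background on all 6 arrays were also checked. The neural marker Map2 and the germ cell marker Ddx4 were lower on all 4. The endothelial marker Tek and the muscle marker Myog were lower on both 4 h arrays. The part of the marker signals in the results was not tested. The early response genes Fos, Fosb, Egr1 and Atf3 rose at both times and Txnip, an inhibitor of thioredoxin, fell at both.

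The promoter stretches below are shown because they carry letters that match the elements through which the loop acts on its own genes. RefSeq promoter windows (GRCm38.p6, 250 bases before to 50 after each start site) matched 9 of the 10 members with 13 windows, and 6 members had at least 1 of the motifs searched on either strand. Capitals mark the E-box CACGTG, the E-prime box CACGTT (printed as AACGTG where it lies on the other strand), the D-box TTATGTAA or the ROR element core TAGGTCA, and each sequence reads 5′ to 3′ on the strand of its gene.
Per1, chr11:69098753-69098812, + strand, E-box: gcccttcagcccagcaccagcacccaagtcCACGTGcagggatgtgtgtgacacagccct
Cry1, chr10:85185095-85185154, - strand, E-prime box and E-box: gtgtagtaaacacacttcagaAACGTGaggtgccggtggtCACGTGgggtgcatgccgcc
Cry2, chr2:92434206-92434265, - strand, E-prime box: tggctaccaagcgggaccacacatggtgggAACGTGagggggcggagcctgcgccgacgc
Nr1d1, chr11:98775378-98775437, - strand, E-prime box: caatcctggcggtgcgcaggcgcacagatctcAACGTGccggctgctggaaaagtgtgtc
Per3, chr4:151044806-151044880, - strand, D-box at both marked places: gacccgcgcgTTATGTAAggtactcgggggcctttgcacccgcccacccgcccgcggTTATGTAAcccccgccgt
Arntl, chr7:113207529-113207558, + strand, ROR element core: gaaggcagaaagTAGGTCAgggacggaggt
The E-box of Per1 starts at position -166 from the start site and that of Cry1 at -60, with the E-prime box of Cry1 at -79. The E-prime box of Cry2 starts at -166 and that of Nr1d1 at -28, the Per3 D-boxes at -205 and -158, and the ROR core of Arntl at position 30, after the start. Of all 32851 promoter windows of this length, 7.15% hold the E-box, 4.68% the E-prime box, 0.938% this D-box and 2.61% the ROR core. The other letters searched were the CRE TGACGTCA, in 1.79% of all windows, and the D-box form TTACGTAA, in 0.119%, and no member window holds either. The windows of Clock, Nr1d2 and Dbp and the other windows of Per1 and Arntl hold none of these letters. The shares over all windows were computed for each motif alone, not for any of the motifs together. A match describes letters in a window, not a bound site.

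After 2 h in H2O2, Arntl, Cry1 and Nr1d2 rose and Cry2 and Dbp fell, which is 5 of the 10 genes, beside 37.5% of the 17192 genes tested (22.7% rose and 14.8% fell) and 35.7% of all probes. After 4 h, Arntl, Nr1d1 and Nr1d2 rose and Dbp, Per2 and Per1 fell, which is 6 of 10, beside 41.9% of all genes (23.9% rose and 18% fell) and 40.6% of all probes. The treated and untreated arrays did not overlap for 8 of the 10 genes at 2 h and for 10 of 10 at 4 h, beside 73.9% and 72.8% of all probes, so arrays that lie apart are the common case here. Per3, close to background on the treated arrays, is in both counts. Clock and Per3 passed at neither time. The median change of the 10 genes was -0.01 at 2 h and 0.02 at 4 h on the log2 scale, against 0.12 and 0.07 for all genes, and the median size of change was 0.43 and 0.49, against 0.27 and 0.29. The shares called lie near the background of these arrays, on which a large part of all genes passed. With spike-in scaling 1 clock gene rose and 7 fell at 2 h, beside 7.35% and 52.2% of all probes, and 2 rose and 4 fell at 4 h, beside 10.6% and 34.5%. With no scaling 1 rose and 5 fell at 2 h, beside 7.58% and 30.7%, and 2 rose and 4 fell at 4 h, beside 9.23% and 29.4%. Without the filter on dim probes 2 were called at 2 h, beside 12.9% of all probes. With bulk RNA, fewer cells that express a gene and less of its RNA per cell cannot be told apart.

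**Figure D1:**
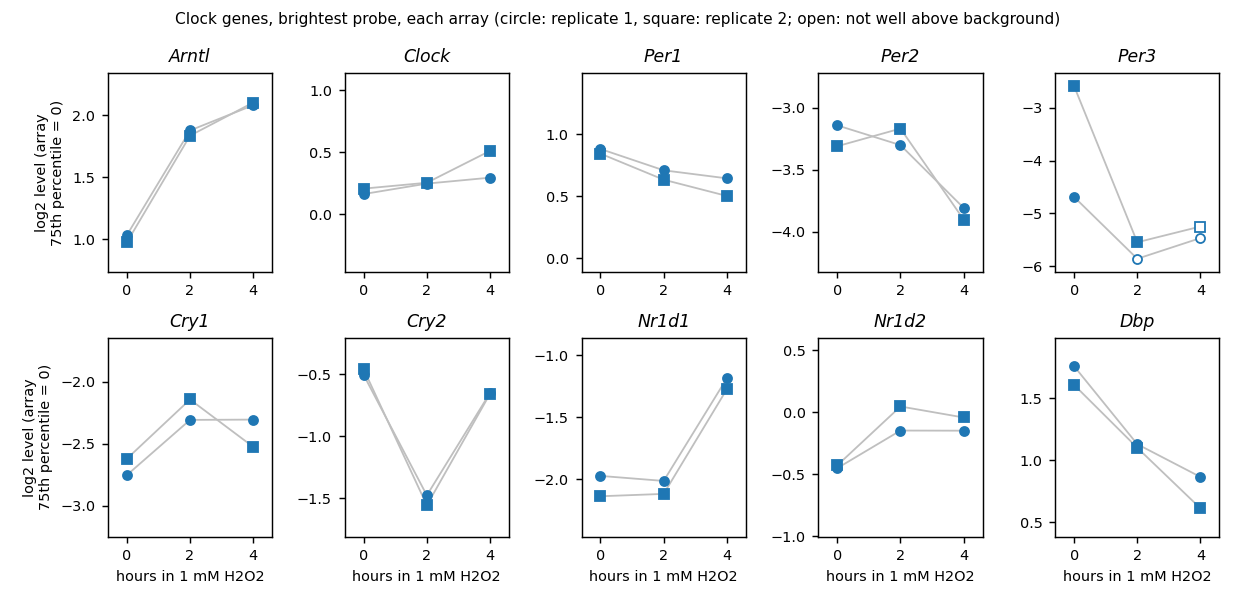
Log2 level of the brightest probe of each clock gene on each array (y axis, log2 of the processed signal over the array's 75th percentile, with its own range per gene) at 0, 2 and 4 h (x axis). Circles are replicate 1 and squares replicate 2, lines join arrays of the same replicate number, and open symbols were not well above background. Arntl lies higher on all 4 treated arrays than on both untreated ones, Cry2 dips at 2 h, Nr1d1 is higher at 4 h alone, and the untreated Per3 arrays differ widely.

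Among the activators, Arntl rose at both times and Clock passed at neither. Arntl encodes the partner of CLOCK, and its probe gave levels of 1.03 and 0.98 in untreated cells, 1.88 and 1.84 at 2 h, and 2.08 and 2.10 at 4 h. All 4 treated arrays lay above both untreated arrays, and both 4 h arrays lay above both 2 h arrays. The change was 0.85 ± 0.06 (SE; 1.81-fold; limma adjusted p = 0.00114) at 2 h and 1.09 ± 0.06 (2.12-fold; limma adjusted p = 0.000759) at 4 h. Relative to the median change of all tested probes, Arntl was higher by 0.75 at 2 h and by 1.03 at 4 h. Both calls held in all 21 other settings tried, in which the 2 h value ranged from 0.40, with spike-in scaling, to 0.88.

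Clock, the DNA-binding partner of ARNTL, gave levels of 0.16 and 0.21 untreated, 0.25 and 0.25 at 2 h, and 0.29 and 0.51 at 4 h. The treated arrays lay above both untreated ones at each time, but the change did not pass: it was 0.07 at 2 h, with a 95% interval of -0.17 to 0.30 (limma adjusted p = 0.596), and 0.22 at 4 h, with an interval of -0.02 to 0.45 (limma adjusted p = 0.117). With spike-in scaling the 2 h value was -0.39 and passed (limma adjusted p = 0.029). The other 3 probes of Clock did not pass against untreated cells at either time. One of them, A_52_P279391, had levels of -2.86 and -2.69 untreated, -3.31 and -3.12 at 2 h, and -2.74 and -2.29 at 4 h, so that both 2 h arrays lay lowest. Its 2 h change was -0.44 ± 0.18 (limma adjusted p = 0.12, and 0.0341 with the replicate block), where the brightest probe gave 0.07.

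Among the repressors the 5 Period and Cryptochrome genes did not move together. Cry2 fell at 2 h and did not pass at 4 h, Cry1 rose at 2 h, Per1 and Per2 fell at 4 h, and Per3 could not be resolved.

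Cry2, a cryptochrome that inhibits the CLOCK and ARNTL dimer, had levels of -0.51 and -0.46 untreated, -1.48 and -1.56 at 2 h, and -0.65 and -0.66 at 4 h. Both 2 h arrays lay far below the other 4, and both 4 h arrays lay a little below the untreated ones. The change at 2 h was -1.03 ± 0.06 (2.05-fold lower; limma adjusted p = 0.000816), which is -1.14 relative to the median of all probes, and it passed in all 21 other settings. At 4 h it was -0.17 ± 0.06, with an interval of -0.33 to -0.01 (limma adjusted p = 0.0856). Its dimmer probe had levels of -3.84 and -4.38 untreated, -4.87 and -4.65 at 2 h, and -4.04 and -4.34 at 4 h. That probe was also lowest on both 2 h arrays, with a change of -0.65 ± 0.22 that did not pass (limma adjusted p = 0.0818).

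Cry1, the other cryptochrome, had levels of -2.75 and -2.62 untreated, -2.31 and -2.14 at 2 h, and -2.30 and -2.52 at 4 h. The treated arrays lay above both untreated ones, while Cry2 lay below at the same times. The change was 0.46 ± 0.11 at 2 h (1.38-fold; limma adjusted p = 0.0353) and 0.27 ± 0.11 at 4 h (limma adjusted p = 0.12). The 2 h call was lost in 12 of 21 other settings, among them the replicate block (limma adjusted p = 0.0524), leaving out any single untreated or 2 h array, and spike-in scaling, where the change was 0.01. The other Cry1 probe was well above background on 1 of 6 arrays and was not tested.

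Per1, the Period gene best known for fast induction by external signals, had levels of 0.88 and 0.84 untreated, 0.71 and 0.63 at 2 h, and 0.64 and 0.50 at 4 h. All 4 treated arrays lay below both untreated ones. The change was -0.19 ± 0.08 at 2 h (limma adjusted p = 0.115, and 0.0486 with the replicate block) and -0.29 ± 0.08 at 4 h (1.22-fold lower; limma adjusted p = 0.0386). The 4 h call held in 11 of 21 other settings and was lost when any 1 of the 6 arrays was left out.

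Per2, a Period protein whose stability helps to set the length of the cycle, had levels of -3.14 and -3.31 untreated, -3.30 and -3.17 at 2 h, and -3.81 and -3.90 at 4 h. The 2 h arrays overlapped the untreated ones and both 4 h arrays lay below them. The change was -0.01 at 2 h, with an interval of -0.25 to 0.24 (limma adjusted p = 0.95), and -0.63 ± 0.09 at 4 h (1.55-fold lower; limma adjusted p = 0.0083). With spike-in scaling the 2 h value was -0.46 and passed (limma adjusted p = 0.00856). The dimmer Per2 probe had levels of -4.50 and -4.55 untreated, -4.22 and -3.87 at 2 h, and -4.51 and -4.71 at 4 h. It gave 0.48 ± 0.14 at 2 h (limma adjusted p = 0.0575) and -0.08 ± 0.14 at 4 h (limma adjusted p = 0.668), so the probes differ in where the 4 h level lies against untreated cells, while both fell between 2 h and 4 h, a direction that turned on both with normexp correction scaled on the 75th percentile (0.13 and 0.32). The 4 h call of the brighter probe was lost with normexp background correction scaled on the 75th percentile, where the value was 0.23, with the mean of the probes (-0.36), and without the first untreated array (-0.54).

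Per3 lay close to background. Its level was -4.69 and -2.59 untreated, -5.86 and -5.55 at 2 h, and -5.47 and -5.25 at 4 h, which are processed signals of 32.0 and 147, 11.6 and 14.5, and 15.2 and 19.8. The first untreated array lay nearer to each of the 4 treated arrays than to the second untreated array. Per3 was well above background on both untreated arrays, 1 of the 2 h arrays and neither 4 h array. The change at 2 h was -2.06 ± 0.70 (limma adjusted p = 0.0797). At 4 h the means put Per3 at least 2.23-fold lower, with the lowest signals well above background standing for the 4 h arrays, but the change did not pass (limma adjusted p = 0.114) and rested on the second untreated array. Without that array the change was -1.01 at 2 h and -0.67 at 4 h, and without the first it was -3.11 and -2.77. With normexp correction scaled on the 75th percentile the 4 h change was 0.042.

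**Figure D2:**
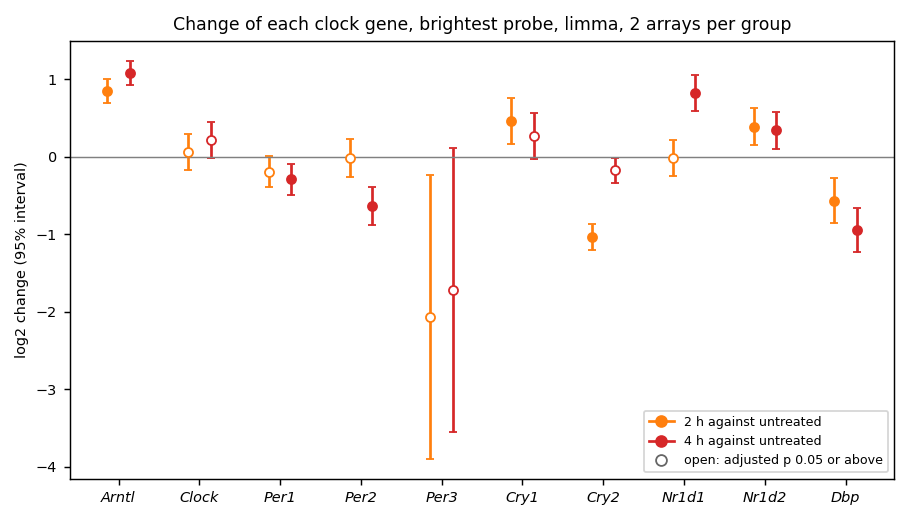
Log2 change against untreated cells (y axis) of the brightest probe of each clock gene (x axis) at 2 h and at 4 h, with 95% intervals from limma; filled symbols passed and open ones did not. Cry2 lies at -1.03 at 2 h and -0.17 at 4 h, Nr1d1 at -0.01 and 0.82, and the intervals of Per3 are the widest. Nr1d2 at 2 h, 0.39 here, was -0.06 with spike-in scaling.

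Of the REV-ERB receptors, Nr1d1 rose at 4 h and Nr1d2 at both times on their brightest probes; at 2 h Nr1d2 turned to -0.06 with spike-in scaling, and the timing of the 2 genes was not compared by a test. Nr1d1, which encodes REV-ERB alpha, had levels of -1.97 and -2.14 untreated, -2.01 and -2.12 at 2 h, and -1.18 and -1.27 at 4 h. The 2 h arrays lay within the range of the untreated ones, and both 4 h arrays lay above the other 4. The change was -0.01 at 2 h, with an interval of -0.24 to 0.22 (limma adjusted p = 0.934), and 0.82 ± 0.09 at 4 h (1.77-fold; limma adjusted p = 0.00351). The 4 h call held in 20 of 21 other settings and was lost with the mean of its 3 probes, 0.53 (limma adjusted p = 0.19). With spike-in scaling the 2 h value was -0.46 (limma adjusted p = 0.00659).

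The other probes of Nr1d1 were dimmer. A_52_P130952 had levels of -4.90 and -4.86 untreated, -4.31 and -3.60 at 2 h, and -3.77 and -4.09 at 4 h. On this probe the 2 h arrays were already above the untreated ones, with 0.92 ± 0.26 at 2 h (limma adjusted p = 0.0511) and 0.95 ± 0.26 at 4 h (limma adjusted p = 0.0433, and 0.0668 with the replicate block). A_52_P130961 ranged from -5.94 to -4.26 with overlapping groups and did not pass. The probes therefore give different 2 h values. Thra, the thyroid hormone receptor alpha gene, overlaps Nr1d1 in the RefSeq table. No probe was placed in or outside the shared stretch, and whether the array signals of the 2 genes are separate was not tested. Thra changed by -0.13 at 2 h (limma adjusted p = 0.186) and rose by 0.34 ± 0.06 at 4 h (limma adjusted p = 0.0156).

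Nr1d2, which encodes REV-ERB beta, had levels of -0.45 and -0.43 untreated, -0.15 and 0.05 at 2 h, and -0.15 and -0.04 at 4 h. All 4 treated arrays lay above both untreated ones, and the 2 h and 4 h arrays overlapped. It rose by 0.39 ± 0.09 at 2 h (1.31-fold; limma adjusted p = 0.0309), which turned to -0.06 with spike-in scaling, and by 0.34 ± 0.09 at 4 h (1.27-fold; limma adjusted p = 0.0384). The calls held in 9 and 11 of 21 other settings and were lost without any 1 of the 6 arrays at 2 h, and without any single untreated or 4 h array, or the first 2 h array, at 4 h.

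**Figure D3:**
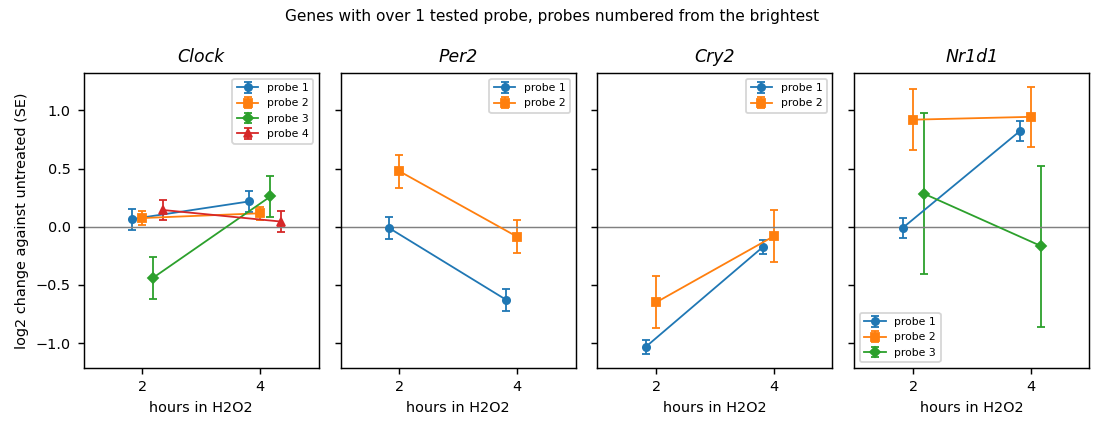
Log2 change against untreated cells (y axis) at 2 h and 4 h (x axis) for each tested probe of the clock genes with more than 1 tested probe; error bars are SE from limma. The probes of Cry2 lie below 0 at 2 h in both cases, at -1.03 and -0.65, while the probes of Nr1d1 spread from -0.01 to 0.92 at 2 h.

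Dbp, a PAR-bZIP transcription factor that is a direct output of the loop, fell at both times. Its levels were 1.76 and 1.61 untreated, 1.13 and 1.10 at 2 h, and 0.86 and 0.61 at 4 h. The 3 groups did not overlap, and the 4 h arrays lay lowest. The change was -0.57 ± 0.11 at 2 h (1.48-fold lower; limma adjusted p = 0.0192) and -0.94 ± 0.11 at 4 h (1.92-fold lower; limma adjusted p = 0.00445). The 4 h call held in all 21 other settings. The 2 h call held in 15, was lost without any single untreated or 2 h array, and moved to -1.02 with spike-in scaling.

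Between 2 h and 4 h, Cry2, Nr1d1 and Arntl rose and Per2 fell, which is 4 of the 10 genes, beside 28.8% of all genes (13.1% rose and 15.7% fell) and 28.1% of all probes. The 4 h and 2 h arrays did not overlap for 7 of the 10 genes, beside 66.6% of all probes. Per3, which was well above background on 1 of these 4 arrays, is among the 7. Cry2 was higher at 4 h than at 2 h by 0.86 ± 0.06 (limma adjusted p = 0.00278) and Nr1d1 by 0.83 ± 0.09 (limma adjusted p = 0.00545) on its brightest probe. The other Nr1d1 probes gave 0.02 ± 0.26 (limma adjusted p = 0.954) and -0.45 ± 0.69 (limma adjusted p = 0.67), and the mean of the 3 probes gave 0.14 (limma adjusted p = 0.754). Arntl was higher by 0.24 ± 0.06 (limma adjusted p = 0.0449), a call that held in 10 of 21 other settings. Per2 was lower at 4 h by -0.62 ± 0.09 (limma adjusted p = 0.0122), and its dimmer probe by -0.56 ± 0.14 (limma adjusted p = 0.045, and 0.0694 with the replicate block). The brighter Per2 probe kept this call in 17 of 21 other settings, and with normexp correction scaled on the 75th percentile the probes gave 0.13 and 0.32. For Dbp the difference was -0.38 ± 0.11 (limma adjusted p = 0.0664, and 0.0332 with the replicate block). Per1, Per3, Cry1, Clock and Nr1d2 did not pass between the times on their brightest probes. The Clock probe A_52_P279391 was higher at 4 h by 0.70 ± 0.18 (limma adjusted p = 0.0469). The 2 h and 4 h changes share the untreated arrays, and this comparison does not use them except for the estimate of spread.

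**Figure D4:**
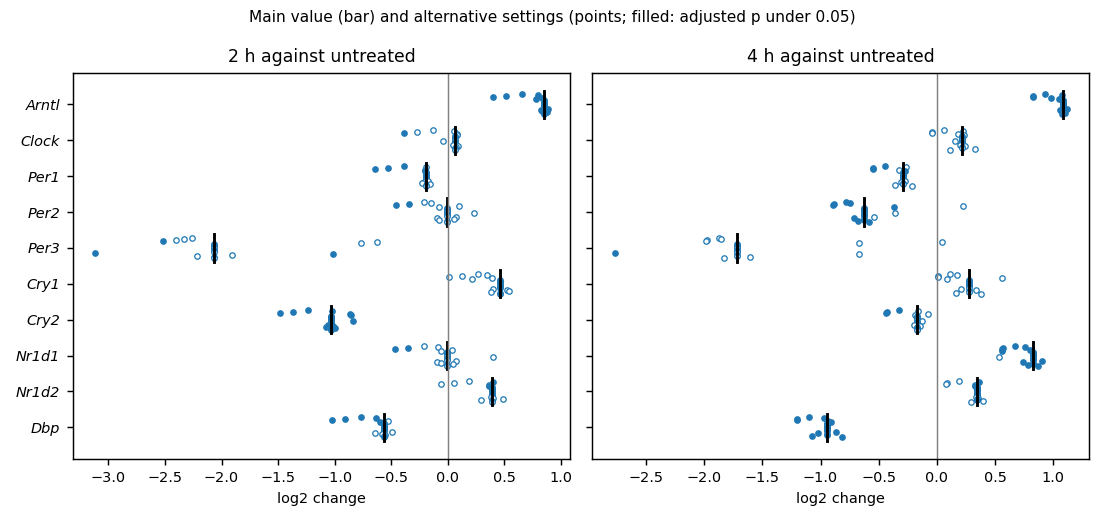
Log2 change against untreated cells (x axis) of the brightest probe of each clock gene (rows) at 2 h and at 4 h. The bar is the reported value, each point is 1 other setting, and filled points passed. Arntl stays above 0 (0.40 to 0.88 at 2 h) and Dbp below 0 (-1.21 to -0.82 at 4 h), while Nr1d2 runs from -0.06 to 0.49 at 2 h.

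Of 46 other genes tied to the clock, 41 were tested. At 2 h 10 rose and 1 fell, and at 4 h 8 rose and 3 fell, so that 26.8% passed at each time, against 37.5% and 41.9% of all genes. With spike-in scaling 3 rose and 24 fell at 2 h, beside 7.35% and 52.2% of all probes, and 7 of the 10 rises turned below 0. At 4 h 4 rose and 12 fell with that scaling, beside 10.6% and 34.5%. With no scaling 3 rose and 11 fell at 2 h, beside 7.58% and 30.7%, and 6 of the 10 turned. At 4 h 3 rose and 9 fell with no scaling, beside 9.23% and 29.4%. The counts by role below are of brightest probes. Their median change was 0.11 at 2 h and 0.09 at 4 h. The partners that can replace CLOCK and ARNTL, Npas2 and Arntl2, were not well above background in any group. Of the ROR receptors, which activate Arntl through ROR elements, Rora alone was tested, with changes of 0.19 ± 0.07 at 2 h (limma adjusted p = 0.0997) and 0.18 ± 0.07 at 4 h (limma adjusted p = 0.109).

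Of 6 factors that act at D-boxes or E-boxes, 2 rose at 2 h and 1 at 4 h, beside 22.7% and 23.9% of all genes. None fell against untreated cells on its brightest probe, beside 14.8% and 18% of all genes. Bhlhe40, a repressor that competes for E-boxes, rose at 2 h by 0.89 ± 0.08 (1.85-fold; limma adjusted p = 0.00236) and was at 0.15 ± 0.08 at 4 h (limma adjusted p = 0.211). Tef, a relative of DBP, rose by 0.28 ± 0.06 at 2 h (limma adjusted p = 0.029), which was -0.17 with spike-in scaling and -0.06 with no scaling, and by 0.61 ± 0.06 at 4 h (limma adjusted p = 0.00325), while Dbp fell at both times. Nfil3, a repressor at D-boxes, changed by 0.13 ± 0.12 at 2 h (limma adjusted p = 0.409) and -0.40 ± 0.12 at 4 h (limma adjusted p = 0.0505, and 0.00719 with the replicate block). Its second probe fell at 4 h, with -0.38 ± 0.09 (limma adjusted p = 0.0312). Hlf at -0.04 and 0.09, Bhlhe41 at 0.12 and 0.68, and Ciart at -0.19 and -0.63 did not pass at 2 h or 4 h.

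Of 10 kinases and phosphatases, 5 rose at 2 h, and 4 rose and 1 fell at 4 h, beside 22.7% of all genes that rose at 2 h and 23.9% that rose and 18% that fell at 4 h. With spike-in scaling 4 of the 5 rises at 2 h turned below 0. Csnk1d and Csnk1e, the casein kinases that phosphorylate PER proteins, did not pass at either time (-0.01 and 0.11 for Csnk1d, 0.14 and 0.13 for Csnk1e). Prkaa2, a catalytic subunit of AMP-activated kinase, rose by 0.99 ± 0.06 at 4 h (1.99-fold; limma adjusted p = 0.00102), and by 0.29 ± 0.06 at 2 h (limma adjusted p = 0.0248), which was -0.16 with spike-in scaling, -0.05 with no scaling and -0.03 with quantile normalization. The mean levels of Prkaa2 were low, at -5.09 untreated, -4.80 at 2 h and -4.10 at 4 h. Prkaa1, the other catalytic subunit, fell by 0.27 at 4 h (limma adjusted p = 0.0391) on its brightest probe, and its second probe gave 0.18. The brightest probe of Csnk2a2, a subunit of casein kinase 2, gave 0.74 ± 0.08 at 2 h (limma adjusted p = 0.00364) and 0.92 ± 0.08 at 4 h (limma adjusted p = 0.0021). Its 2 other probes gave -0.12 and 0.11 at 2 h and -0.64 and -0.24 at 4 h, so that the probes of this gene disagree in direction.

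Of 8 tested ubiquitin ligase subunits and proteases, 2 rose at each time, and both rises at 2 h turned below 0 with spike-in scaling. Of 13 cofactors, 1 fell at 2 h and 2 at 4 h, and none rose on its brightest probe. Beside the counts of these 2 roles, 22.7% of all genes rose and 14.8% fell at 2 h. At 4 h 23.9% of all genes rose and 18% fell. Other cofactor probes did rise: 3 at 2 h, of Kdm5a and Ncor1, and 3 at 4 h, of Kdm5a, Ncor1 and Cipc, which are named here after their values were seen. One of the Ncor1 probes, for a corepressor that acts with REV-ERB receptors, gave 1.20 ± 0.15 at 2 h (limma adjusted p = 0.00599), where the brightest gave 0.0032 (limma adjusted p = 0.987). Sirt1, a deacetylase that binds CLOCK, fell at 2 h by 0.70 on the log2 scale (limma adjusted p = 0.00303) and was at -0.17 ± 0.07 at 4 h (limma adjusted p = 0.126), with -0.78 and -0.29 on its second probe. Ppargc1a, a coactivator that acts with ROR receptors, changed by -0.39 ± 0.10 at 4 h (limma adjusted p = 0.0383), and by 0.13 under normexp correction scaled on the 75th percentile, and Timeless by -0.36 ± 0.08 (limma adjusted p = 0.0269). Of 3 output genes, Noct, a rhythmically expressed relative of deadenylases, rose by 1.02 ± 0.08 at 2 h (2.03-fold; limma adjusted p = 0.00145) and by 0.86 ± 0.08 at 4 h (1.82-fold; limma adjusted p = 0.00236).

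**Figure D5:**
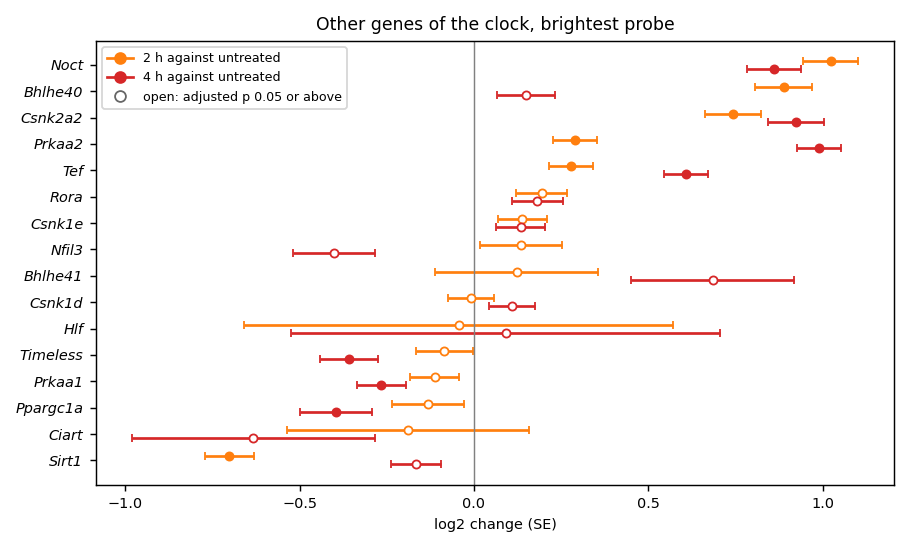
Log2 change against untreated cells (x axis) of other genes tied to the clock (rows) at 2 h and 4 h; error bars are SE from limma and filled symbols passed. Noct and Bhlhe40 lie near 1.02 and 0.89 at 2 h and Sirt1 at -0.70; Tef and Prkaa2 at 2 h turn below 0 with spike-in scaling.

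For each clock gene measured on all 6 arrays, the nearest of 12230 other genes was found by the Euclidean distance between log2 profiles, each centred on its own mean over the 6 arrays. Nearest to Arntl were Wnt11 at 0.0657, Rgcc at 0.0942 and Dctn4 at 0.123, and Wnt11 changed by 0.84 at 2 h and 1.06 at 4 h. Nearest to Cry2 were Sh3bp5l at 0.0665, Haus3 at 0.115 and Zfp108 at 0.128, and Sh3bp5l changed by -1.10 at 2 h and -0.19 at 4 h. Nearest to Nr1d1 were Zbtb24 at 0.0933, Ssh1 and Fam160a2, to Dbp were Pomk at 0.0904, Rpap1 and Ciao3, and to Per2 were Satb1 at 0.0889, Dimt1 and Prc1. The genes closest to Per1, Cry1, Clock and Nr1d2 were Bysl, Tssk6, Mob1a and Sprr2a1. None of these is another of the 10 clock genes, and the points share arrays and scaling, so the distances are a description.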

How the data were processed

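The deposited scanner files hold fluorescence intensity per spot on a linear scale, which the authors obtained with Feature Extraction 9.5.3.1 and protocol GE1-v5_95_Feb07 on a G2505B scanner, per the file headers. The deposited value table holds the same intensity, equal to the processed signal. The log2 values were computed here from the deposited processed signal. Control spots and outlier-flagged spots (99 to 149 per array) were left out, leaving at most 43379 of 45018 spots, the 75th percentile of each array was subtracted, and spots of a probe were averaged. A probe was tested if some group had it well above background on each of its arrays. A single limma model (version 3.58.1, R 4.3.3) held all 6 arrays, and data.table (version 1.17.8) read the files. Variances were moderated with 1.69 prior and 3 residual degrees of freedom. Within each of 3 comparisons the Benjamini-Hochberg adjustment ran over every tested probe. An exact two-sided permutation test of 2 against 2 arrays cannot go below 0.333.

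Per the file headers, replicate 1 of every group lay on 1 slide and replicate 2 on the other, with each time point at the same position on both, so position and time point cannot be told apart. Deviations of same-numbered arrays from their group means correlated at 0.213, 0.193 and 0.209 over probes, and the replicate number was therefore also fitted as a block. The method was tested on simulated data. Text names all 10 genes and all their probes, a listed set of other clock genes, and the 4 largest rises and falls among those; 1 gene of that set is not reported here. The members and lists were chosen with earlier results of these data known. Alternatives were other scalings, normexp correction, filters, probe rules, variance models and leaving out each array. No probe position is printed, because the genome build behind the probes' coordinates was not given in the sources used here. The promoter coordinates are those of RefSeq (GRCm38.p6). Precision is limited by having 2 arrays per group.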

Additional observations from a re-analysis of the deposited data

Results flagged for a closer look

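The change against untreated cells differed between 4 h and 2 h, by limma's test of the difference itself, for 11 probes. These were counted over the 17 tested probes of the 10 clock genes and the brightest probe of each other named gene. Of all tested probes, 28.1% passed this test. Some of the other genes were named for large changes in these data, so the 11 probes cannot be set against that share. Over the brightest probes of all 41 tested other clock genes, 7 passed (17.1%), beside 28.8% of all genes. A further 6 dimmer probes of the other named genes passed the same test. On the log2 scale the 4 h change minus the 2 h change was -0.62 and -0.56 for the brighter and the dimmer probe of Per2, 0.86 for Cry2, 0.24 for Arntl, 0.83 for Nr1d1 and 0.70 for the Clock probe A_52_P279391. Among the other clock genes it was -0.54 for Nfil3, 0.33 for Tef, -0.74 for Bhlhe40, 0.70 for Prkaa2 and 0.54 for Sirt1. For Nr1d1 the value is that of the brightest probe; its other probes gave 0.02 and -0.45, which did not pass, and the mean of its 3 probes gave 0.14. Both effects use the same untreated arrays, which cancel in the difference. With 2 arrays per group no single array could be tested as an outlier.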

How the results depend on the processing

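With 2 arrays per group and 3 residual degrees of freedom, calls near the threshold moved with the setting. Per3 and the dimmer probes of Cry1, Cry2, Per2 and Nr1d1 lay near background. The brightest probes of Prkaa2, Hlf and Bhlhe41 and the Clock probe A_52_P161365 had levels as low as some of these. Why calls moved was not tested. The fit without the filter on dim probes adjusts over more probes, and the fits without 1 array hold fewer arrays. Of the clock genes, 5 were called at 2 h (beside 35.7% of all probes), 8 with spike-in scaling (59.5%), 2 with normexp scaled on the 75th percentile (6.55%) and 2 without the dim filter (12.9%). At 4 h 6 were called (40.6%), and 3 with that normexp setting (10.7%). Between 4 h and 2 h 4 were called (28.1%), and 2 with that normexp setting (3.98%). With any single array left out, fewer clock genes were called in each comparison. Of the other clock genes, 11 were called at 2 h (beside 35.7% of all probes) and 27 with spike-in scaling (59.5%). With that normexp setting 3 were called (6.55%), and 4 without the dim filter (12.9%). With median scaling 7 were called, and 7 with only the groups compared. At 4 h 11 were called (40.6%), 3 with that normexp setting (10.7%), 5 without the dim filter and 7 with only the groups compared. Between 4 h and 2 h 7 were called (28.1%), and 1 and 3 with normexp and without the dim filter. Fewer other clock genes were also called in each comparison with any single array left out. Where no share of all probes stands beside a count or a drop in calls, it cannot be set against all genes.

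The median change of all tested probes was 0.104 at 2 h and 0.0586 at 4 h, and with spike-in scaling -0.348 and -0.203. With spike-in scaling 7 of the 10 rises of other clock genes at 2 h turned below 0. Among named genes, directions that turned at 2 h, with a call on either side, were Nr1d2 (-0.063), Clock (-0.39, -0.38 and -0.31 on 3 probes), Prkaa2 (-0.16), Nfil3 (-0.32), Tef (-0.17) and Csnk1e (-0.31). With no scaling Prkaa2 was -0.047 and Tef -0.060 at 2 h, and Prkaa2 was -0.030 after quantile normalization and -0.016 with normexp and quantile. With normexp scaled on the 75th percentile, Per2 was 0.23 at 4 h, 0.13 and 0.32 on its probes between 4 h and 2 h, and Ppargc1a was 0.13 at 4 h. Signs that differed where neither value was called were counted over values, by probe, comparison and setting. There were 21 among 627 values of the brightest probes of the clock genes. There were 36 among 390 values of the dimmer probes of the same genes, and 67 among 1068 values of other genes. With the replicate block 5, 6 and 5 clock genes and 13, 15 and 8 other clock genes were called in the 3 comparisons. The shares of all probes called with the block are not given here, so these counts cannot be set against all genes. Beside the calls given in the report, the block did not end a call of a clock gene. A slide block is the same split and was not run separately.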
